A study of Mus musculus with 24 samples.

Results

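Acute phase and iron-handling plasma proteins are described here through 10 genes, Hp, Hpx, Saa1, Saa2, Saa3, Apcs, Itih4, Hamp, Trf and Cp, each named by exactly 1 probe set of the array. They are 10 of 19505 named genes measured in all 24 samples. The genes were chosen by name, not by their values. The samples came from grandoffspring of obese (SL) or control male mice of the outbred strain ICR-CD1. They fell into 6 groups of 4 arrays: whole embryo at embryonic day 7.5 (ED7.5) SL, then ED7.5 control, ED14.5 SL, ED14.5 control, PD7.5 liver SL and PD7.5 liver control, where PD7.5 is postnatal day 7.5. The labels do not say what the letters SL mean, how obesity came about or whether litters were shared within a group, so p-values measure only the spread between these samples, which may be partly technical. Expression was read on single-colour arrays, and the values are log2 probe set summaries.

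The liver makes most of the proteins that circulate in plasma. In the acute phase response to infection or injury, interleukin 6 and interleukin 1 signal through STAT3, C/EBP and NF-kB factors in hepatocytes and raise a set of these proteins, among them serum amyloid A and haptoglobin. Several members of the set handle iron: transferrin carries it, haptoglobin and haemopexin recover it from haemoglobin and haem, ceruloplasmin oxidises it with copper, and hepcidin blocks its export from cells.

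The labelled tissues were checked against marker genes. On the ED7.5 arrays all 10 measured decidua markers, genes of the maternal tissue around the implanted embryo, lay above background on all 4 SL and all 4 control arrays, while 1 of 9 epiblast markers did so in either arm. On the ED14.5 arrays, labelled whole embryo, 11 of 14 hepatocyte markers lay above background on all arrays of each arm, and 10 of 12 brain and muscle markers on none. By these markers the ED14.5 samples looked more like liver than like whole embryo. In the PD7.5 livers all 14 hepatocyte markers lay above background on every array. Differences between the ages are therefore differences between unlike tissue samples as well as between ages, and fewer cells of a type cannot be told apart from less RNA per cell. Background was set on each array at the upper quartile of 5222 intron control probes and ran from 5.05 to 6.53. The share of genes above it ran from 48.3% to 64.1%. The arrays with the highest background, ED7.5 control replicate 2 and ED14.5 control replicate 1, stood apart from the rest of their groups. Without either of them no call of the 10 genes changed in any comparison, and of the other genes named by rule only Atp7a lost its call, between the control livers and ED14.5 (−0.49 without ED14.5 control replicate 1, adjusted p = 0.0552). Eif2s3y, a Y-linked gene, lay above background on 1 SL and 2 control arrays at ED14.5, on all 8 liver arrays and on no ED7.5 array.

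At ED7.5, in samples dominated by decidual transcripts, few of the plasma protein genes were detected. In the SL group 3 of the 10 genes lay above background on all 4 arrays, and in the control group 2 did. By ED14.5 this held for 6 genes in each arm, and in the PD7.5 liver for 8 genes in each arm. Saa1 and Saa2 stayed at or near background throughout.

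**Figure D1:**
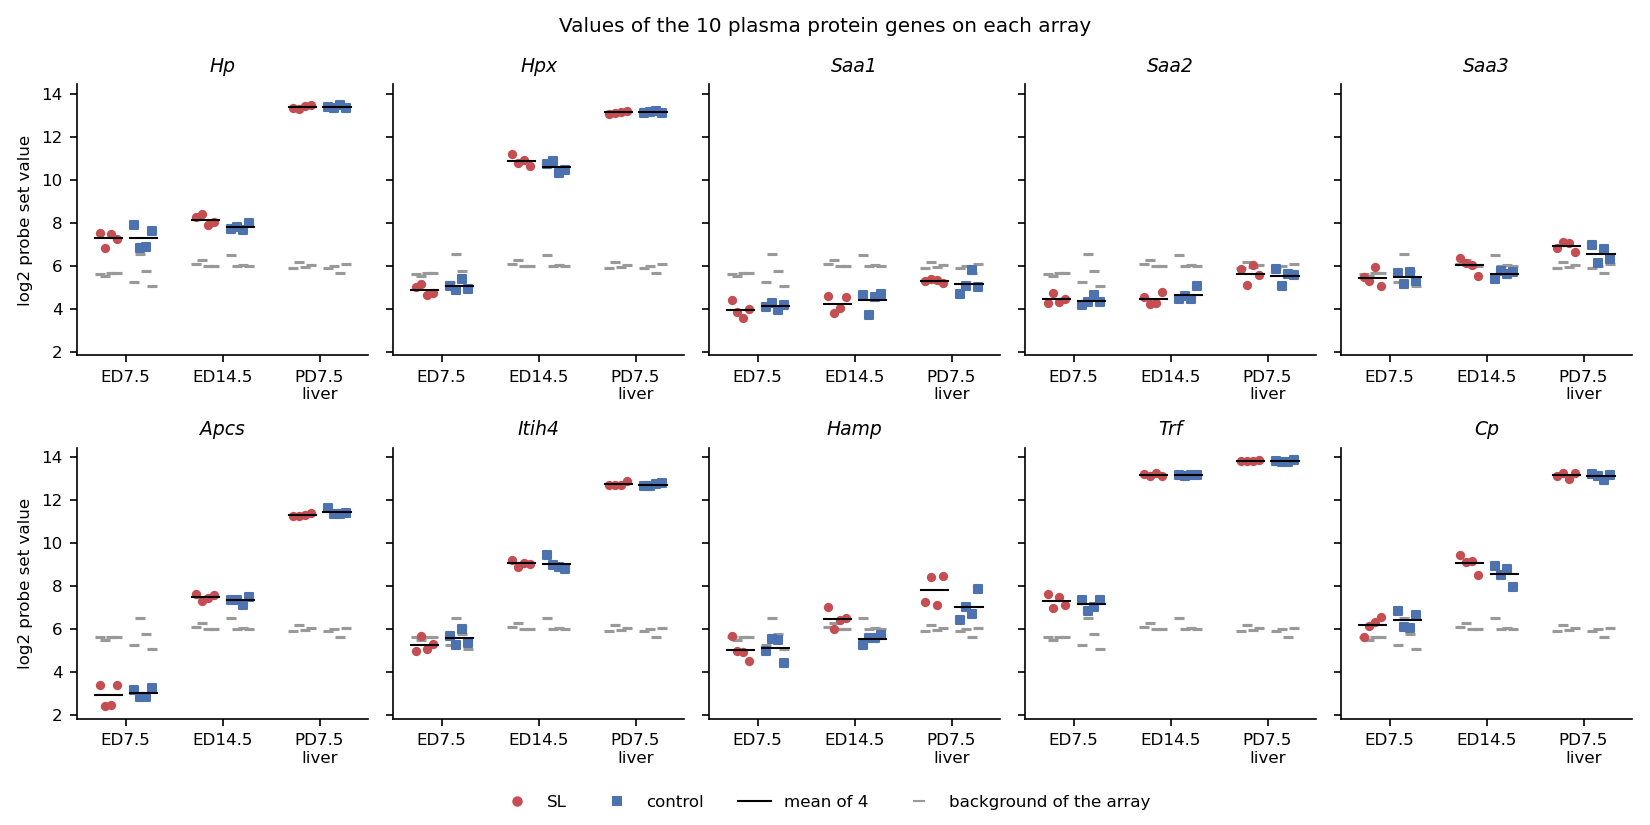
Log2 probe set values of the 10 genes on each of the 24 arrays, by age and arm (SL circles, control squares), with the mean of 4 as a black line and the background of each array as a grey dash. Hpx, Apcs, Itih4, Trf and Cp stood higher at ED14.5 than at ED7.5, Hp reached its high level only in the PD7.5 liver, and Saa1 and Saa2 lay near background at all ages.

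The first question was when each gene reached its high level, taken in the control arm from ED7.5 to ED14.5 and from ED14.5 to the PD7.5 liver. Between ED7.5 and ED14.5, 5 of the 10 genes rose and 0 fell, where 25.6% of all genes rose. Between ED14.5 and the PD7.5 liver, 9 of 10 rose and 0 fell, where 20.5% of all genes rose. Leaving out any single array, ED7.5 control replicate 2 and ED14.5 control replicate 1 included, removed none of these calls. Of all genes 26.3% fell at the first step and 24.6% at the second. The median difference of the 10 genes was 1.31 at the first step and 2.01 at the second, against 0.03 and −0.02 over all genes. The tests were limma's moderated tests over all genes with Benjamini-Hochberg adjustment and a threshold of 0.05. Both steps use the same ED14.5 control arrays.

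Transferrin, above background already at ED7.5, rose at both steps. Trf had values of 13.17, 13.12, 13.16 and 13.16 on the ED14.5 control arrays, against 7.36, 6.85, 7.02 and 7.36 on the ED7.5 control arrays. The groups lay far apart, with a difference of 6.01 (SE 0.133, adjusted p = 3.94e-10), a 64.4-fold change. In the PD7.5 control livers Trf read 13.83, 13.77, 13.76 and 13.84, a further rise of only 0.65 (SE 0.0959, adjusted p = 0.000319). These values lie close to the highest value of any feature on any array, 14.07, where array signals can saturate. The spread of Trf was small, with an SD of 0.0102 in SL and 0.0411 in control livers.

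Haemopexin, which binds free haem and returns it to the liver, rose at both steps. Hpx read 10.74, 10.85, 10.31 and 10.43 in ED14.5 controls, against 5.07, 4.85, 5.37 and 4.92 in ED7.5 controls, where every array was below background. The rise was at least 30.6-fold (difference 5.53, SE 0.161, adjusted p = 1.83e-09). Hpx then reached 13.12, 13.14, 13.17 and 13.11 in the control livers, 2.55 higher than at ED14.5 (SE 0.138, adjusted p = 4.09e-07).

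Haptoglobin, which captures haemoglobin released from red cells, followed another course from haemopexin. Hp was already above background at ED7.5, with control values of 7.87, 6.82, 6.89 and 7.59. Values of 7.72, 7.81, 7.64 and 7.96 in the ED14.5 controls overlapped these, and the difference of 0.49 did not pass (SE 0.226, adjusted p = 0.0987). It passed with all 24 arrays in one fit (adjusted p = 0.0324) and without ED7.5 control replicate 1, the highest of its group, where the difference was 0.68 (adjusted p = 0.0171), but not without replicate 2 (0.33, adjusted p = 0.242). In the PD7.5 control livers Hp stood at 13.38, 13.32, 13.48 and 13.35, which is 5.60 above the ED14.5 controls (SE 0.112, adjusted p = 1.56e-09) or 48.6-fold. Among the 6 genes above background on all ED14.5 control arrays, Hp had the largest difference at this second step in the control arm.

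Ceruloplasmin, the copper-carrying ferroxidase of plasma, rose at both steps. Cp averaged 8.54 ± 0.428 in ED14.5 controls and 6.42 ± 0.391 in ED7.5 controls (SD, n = 4 each), with a difference of 2.13 (SE 0.243, adjusted p = 3.25e-05). It averaged 13.11 ± 0.103 in the control livers (SD, n = 4), higher than at ED14.5 by 4.56 (SE 0.198, adjusted p = 1.01e-07).

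Apcs encodes serum amyloid P component, a pentraxin that in the mouse is an acute phase protein, and Itih4 an inter-alpha-trypsin inhibitor heavy chain family member. Apcs averaged 7.33 ± 0.144 in ED14.5 controls and 3.03 ± 0.210 in ED7.5 controls (SD, n = 4 each). All 4 ED7.5 control arrays lay below background, so this rise was at least 3.20-fold (adjusted p = 2.50e-09). In the control livers Apcs averaged 11.45 ± 0.138 (SD, n = 4), 4.12 above ED14.5 (SE 0.123, adjusted p = 1.20e-08). Itih4 rose by 3.46 at the first step (SE 0.188, adjusted p = 1.13e-07) and by 3.67 at the second (SE 0.148, adjusted p = 6.72e-08).

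The steps were also taken in the SL arm, whose arrays are separate from the control arrays. At the step from ED7.5 to ED14.5, 7 of the 10 genes rose in SL, where 26.4% of all genes did, and from ED14.5 to the PD7.5 liver 10 of 10 rose, where 21.4% of all genes did. The additional genes at the first step were Hp, with a difference of 0.88 (SE 0.173, adjusted p = 0.00172), and Hamp, with 1.45 (SE 0.268, adjusted p = 0.00114). The difference between the arms at this step was tested as an interaction term over all 24 arrays. By limma 0 of the 10 genes passed, where 0.0769% of all genes did, and 3 of 10 had an unadjusted p below 0.05, where 6.92% of all genes did. The interaction was 1.02 for Hamp (SE 0.477, adjusted p = 0.703), 0.75 for Cp (SE 0.317, adjusted p = 0.636), 0.44 for Hpx (SE 0.199, adjusted p = 0.676) and 0.39 for Hp (SE 0.264, adjusted p = 0.857). Hpx lay above background on no ED7.5 array. Hamp did so on 1 of 4 SL and 0 of 4 control arrays at ED7.5 and on 0 of 4 ED14.5 control arrays. The SL step of Hamp and the interactions of Hamp and Hpx are thus read largely against signals below background.

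**Figure D2:**
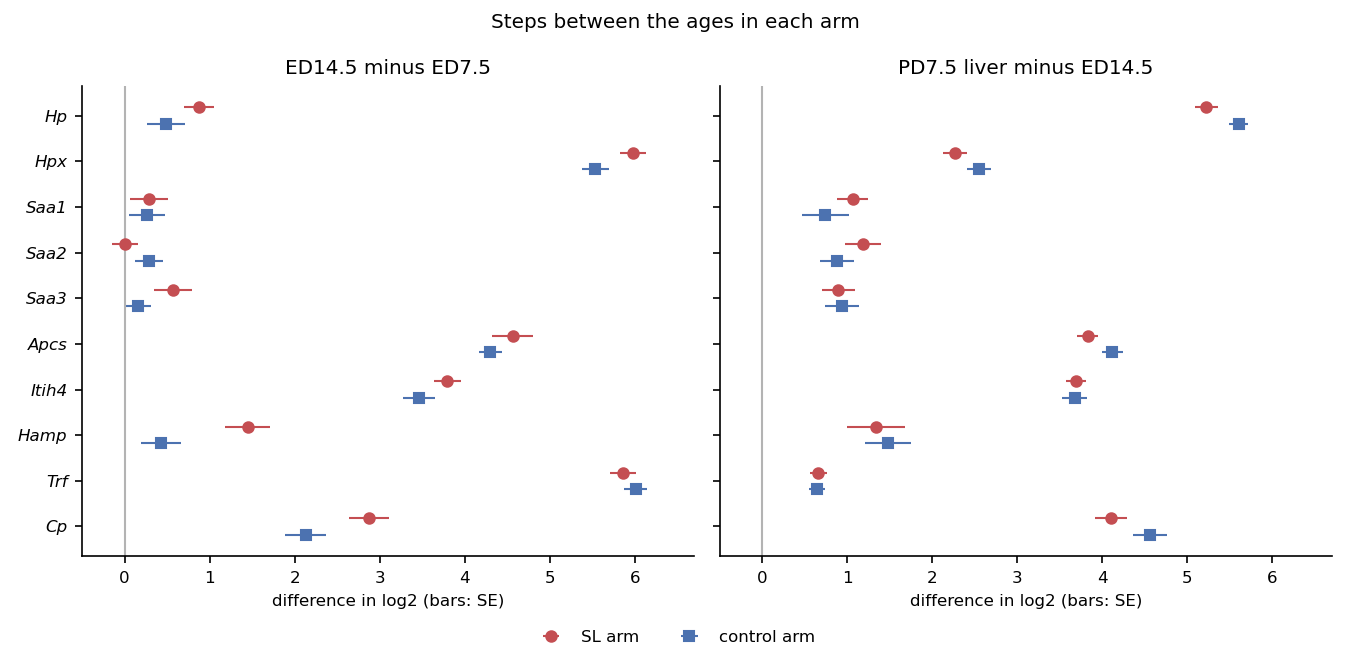
Differences in log2 between ED14.5 and ED7.5 (left) and between the PD7.5 liver and ED14.5 (right) for the 10 genes, in the SL arm (circles) and the control arm (squares), with SE bars. In controls Trf differed by 6.01 at the first step and Hp by 5.60 at the second, while the plotted first-step values of Hpx and Apcs are read against ED7.5 control arrays below background.

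Serum amyloid A proteins 1 and 2 are the lipoprotein-bound acute phase proteins that a hepatocyte makes in quantity only when stimulated. Saa1 read 5.30, 5.39, 5.32 and 5.20 in SL livers, against 4.69, 5.04, 5.80 and 5.00 in control livers. It lay above background on 0 of 4 SL and 1 of 4 control liver arrays, and on no array at either embryonic age. Saa2 read 5.85, 5.11, 6.01 and 5.55 in SL livers, against 5.83, 5.07, 5.61 and 5.56 in control livers, above background on 1 SL array and on no control array. With values this close to background, the arms are not ordered for either gene.

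Between the control livers and the ED14.5 controls Saa2 passed the test, with a difference of 0.88 (SE 0.196, adjusted p = 0.00416), although all 8 arrays lay below background, so no fold is given. Saa1 differed by 0.74 at the same step and did not pass (SE 0.278, adjusted p = 0.0534), with the groups overlapping. It passed with the trended robust prior (adjusted p = 0.0380), with all 24 arrays in one fit (adjusted p = 0.0109) and without control liver replicate 1, at 0.89 (adjusted p = 0.0344). At the step from ED7.5 it passed without ED14.5 control replicate 2, at 0.49 (adjusted p = 0.00969), against 0.26 on all arrays (adjusted p = 0.325), all but 1 of these values being below background. Saa3, which is made by macrophages as well as by the liver, was above background on all 8 liver arrays. It averaged 6.55 ± 0.403 in control livers and 5.61 ± 0.171 in ED14.5 controls (SD, n = 4 each), where no array was above background, at least 1.33-fold higher (difference 0.94, SE 0.197, adjusted p = 0.00302). The macrophage markers moved with it: 11 of 12 rose, where 20.5% of all genes did. The log2 of the markers' summed level ran from 12.92 to 13.08 in control livers and from 11.65 to 12.13 in ED14.5 controls. Their part in the difference of Saa3 was not tested.

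Saa1 and Saa2 lie next to each other on chromosome 7 in the RefSeq annotation of GRCm38.p6, with a Saa pseudogene, Saa4 and Saa3 on the Saa1 side. Their promoters are shown because they are nearly the same sequence. Over the 250 bases before the annotated start, 94.8% of 251 aligned positions were identical between Saa1 and Saa2, against 49.6% between Saa1 and Saa3. Whether the probes separate the transcripts of such close copies was not tested. The RefSeq windows below run 5′ to 3′ on the strand of the gene, at chr7:46742981-46743230 (minus strand), chr7:46751583-46751832 (plus strand) and chr7:46715677-46715926 (minus strand) of GRCm38.p6. Capitals mark the match to TTGCNNAA, the consensus of C/EBP factors, searched on both strands with N as any base.
Saa1: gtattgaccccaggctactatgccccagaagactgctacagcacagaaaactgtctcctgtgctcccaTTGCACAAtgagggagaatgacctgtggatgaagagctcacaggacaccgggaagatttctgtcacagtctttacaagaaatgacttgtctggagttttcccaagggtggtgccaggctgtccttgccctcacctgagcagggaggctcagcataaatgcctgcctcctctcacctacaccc
Saa2: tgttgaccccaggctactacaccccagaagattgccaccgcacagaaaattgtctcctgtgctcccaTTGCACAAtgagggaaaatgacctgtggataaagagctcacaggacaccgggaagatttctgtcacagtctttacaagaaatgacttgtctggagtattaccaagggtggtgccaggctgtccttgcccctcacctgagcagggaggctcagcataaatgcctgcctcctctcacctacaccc
Saa3: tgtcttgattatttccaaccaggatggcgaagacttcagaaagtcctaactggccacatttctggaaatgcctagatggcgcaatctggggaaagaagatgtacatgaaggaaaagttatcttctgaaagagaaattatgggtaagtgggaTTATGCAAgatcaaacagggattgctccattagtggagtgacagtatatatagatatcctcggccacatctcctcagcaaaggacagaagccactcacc

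The same 8-base match, TTGCACAA, stood 182 bases before the start of Saa1 and 183 bases before that of Saa2. In Saa3 the match began 99 bases before the start. Of 32851 windows of this length in the table, 9.56% held a match. Windows were given for 8 of the 10 genes, and matches to this motif also lay in those of Hpx and Cp. The STAT consensus TTCNNNGAA matched in Apcs, Itih4 and Hamp and in 7.02% of all windows.

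Hepcidin, the peptide hormone encoded by Hamp, makes cells degrade the iron exporter ferroportin and so lowers plasma iron. Its gene is switched by BMP6 through SMAD factors when iron is plentiful and by interleukin 6 through STAT3 in inflammation. The promoter of Hamp is shown because it holds a motif of each route. The RefSeq window is chr7:30944030-30944279 on the minus strand of GRCm38.p6, and capitals mark GGCGCC, a BMP-responsive motif, and then the STAT match.
Hamp: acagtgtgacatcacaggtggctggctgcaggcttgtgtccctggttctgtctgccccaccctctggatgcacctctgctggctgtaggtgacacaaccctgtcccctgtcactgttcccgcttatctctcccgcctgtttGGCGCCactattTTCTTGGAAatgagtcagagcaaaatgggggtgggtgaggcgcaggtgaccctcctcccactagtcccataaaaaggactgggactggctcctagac

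The BMP motif began 109 bases and the STAT motif 97 bases before the start, with no overlap. GGCGCC was found in 9.59% of all windows and in none of the other members' windows. A match is a description of the letters and not of binding.

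Hamp had the smallest p of the 10 genes between the arms at ED14.5. It read 7.03, 6.01, 6.40 and 6.49 in SL samples, against 5.26, 5.60, 5.56 and 5.71 in control samples. All 4 SL arrays lay above all 4 control arrays, and 3 of 4 SL arrays but 0 of 4 control arrays were above background. The difference was 0.95 (SE 0.202, 95% interval from 0.49 to 1.40), at least 1.28-fold, and it did not pass the threshold over all genes (unadjusted p = 0.00103, adjusted p = 0.133 by limma). As the control arrays lay below background, its difference is not ranked against those of the other genes. At this age 3.71% of all genes lay wholly higher in SL.

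The Hamp difference at ED14.5 was 0.77 without SL replicate 1, its highest array, 1.11 without SL replicate 2, its lowest, and 0.86 without control replicate 1, the array of highest background. The call depended on the variance model: when the prior variance followed mean expression and was made robust to outliers, Hamp passed (adjusted p = 0.0244), in a fit that called 1.45% of all genes. Over all alternatives the adjusted p ran from 0.0244 to 0.318. Eif2s3y was present on SL replicate 3 and on control replicates 1 and 4, and Hamp values of the arrays without it were 7.03, 6.01 and 6.49 in SL and 5.60 and 5.56 in controls. With its presence as a covariate, added after the data were seen, the difference was 0.92 (SE 0.218, adjusted p = 0.255).

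In the PD7.5 liver Hamp read 7.27, 8.40, 7.13 and 8.47 in SL, against 6.43, 7.04, 6.72 and 7.85 in controls. The groups overlapped, with a difference of 0.81 (SE 0.389, 95% interval from −0.06 to 1.68, adjusted p = 0.653). The SL values fell into a lower and a higher pair, and the spread of Hamp was the widest of the 10 genes in either liver group, with SDs of 0.716 in SL and 0.616 in controls. The SL difference in the liver less that at ED14.5 was −0.14 (SE 0.477, 95% interval from −1.13 to 0.85, adjusted p = 0.953). At ED7.5 Hamp differed by −0.07 (SE 0.292, adjusted p = 0.998), and by 0.08 without control replicate 2.

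Erythroid cells, which signal iron demand to the liver, were followed by their markers. In the liver, of 9 measured erythroid markers 0 passed the test, 1 had an unadjusted p below 0.05 and 0 had a difference above 0, with a median of −0.56. Of all genes 7.91% had such a p and 50.7% a difference above 0. The log2 of the erythroid markers' summed level ran from 11.02 to 12.48 in SL livers and from 12.09 to 12.77 in control livers. Of the markers 7 of 9 in SL and 9 of 9 in controls lay above background on all arrays. At ED14.5 their median difference was −0.10, with 2 of 9 above 0, and all 9 lay above background on every array of both arms. A measure of array quality, how well exon control probes stood apart from intron ones, ran from 0.897 to 0.904 in SL livers and from 0.906 to 0.920 in control livers. The part of these in the Hamp values was not tested.

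The other genes of iron handling, a list of 41, gave 0 calls by limma between SL and control at any of the 3 ages, with unadjusted p below 0.05 for 3 genes at ED7.5, 5 at ED14.5 and 5 in the liver. Of all genes, 5.49%, 11.4% and 7.91% had such a p at these ages. At ED14.5, 16 of the 41 had differences above 0, against 50% of all genes, with a median of −0.03. The smallest p values belonged to Smad7, an inhibitor in the BMP pathway that lowers hepcidin (−0.40, SE 0.108, adjusted p = 0.223, with all 8 arrays below background), and the metalloreductase Steap2 (−0.45, SE 0.131, adjusted p = 0.251). In the liver they belonged to Smad1, which carries the BMP signal (−0.40, SE 0.146, adjusted p = 0.585), and Hmox1, which breaks down haem (−0.39, SE 0.157, adjusted p = 0.623). At ED7.5 they belonged to Tfr2, an iron sensor of hepatocytes (−0.55, both groups below background, adjusted p = 0.806), and Cybrd1, a ferric reductase (0.27, adjusted p = 0.884).

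Hamp2 and regulators or targets of the hepcidin pathway, chosen from this list by role after their values were seen, had differences of both signs, and none passed. Hamp2 is a close copy of Hamp, and whether the probes separate the 2 transcripts was not tested. It differed by 0.41 at ED14.5 (SE 0.154, adjusted p = 0.368) and by 0.53 in the liver (SE 0.316, adjusted p = 0.712). Hjv, the BMP coreceptor haemojuvelin, read 7.20, 6.89, 6.41 and 7.51 in ED14.5 SL samples, against 6.47, 6.60, 6.43 and 6.51 in controls, a difference of 0.50 (SE 0.207, adjusted p = 0.408). Bmp6 lay above background on 2 of 4 SL and 0 of 4 control arrays at ED14.5, and its difference was 0.45 (SE 0.210, adjusted p = 0.459). Id1, a target gene of BMP signalling, differed by −0.14 (SE 0.135, adjusted p = 0.736), Tfr2 by −0.12 (SE 0.0897, adjusted p = 0.651) and Tmprss6, the protease that restrains hepcidin, by −0.04 (SE 0.104, adjusted p = 0.918). Erfe averaged 6.93 ± 0.334 in SL and 6.68 ± 0.181 in control samples at ED14.5 (SD, n = 4 each), with overlapping arrays.

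**Figure D3:**
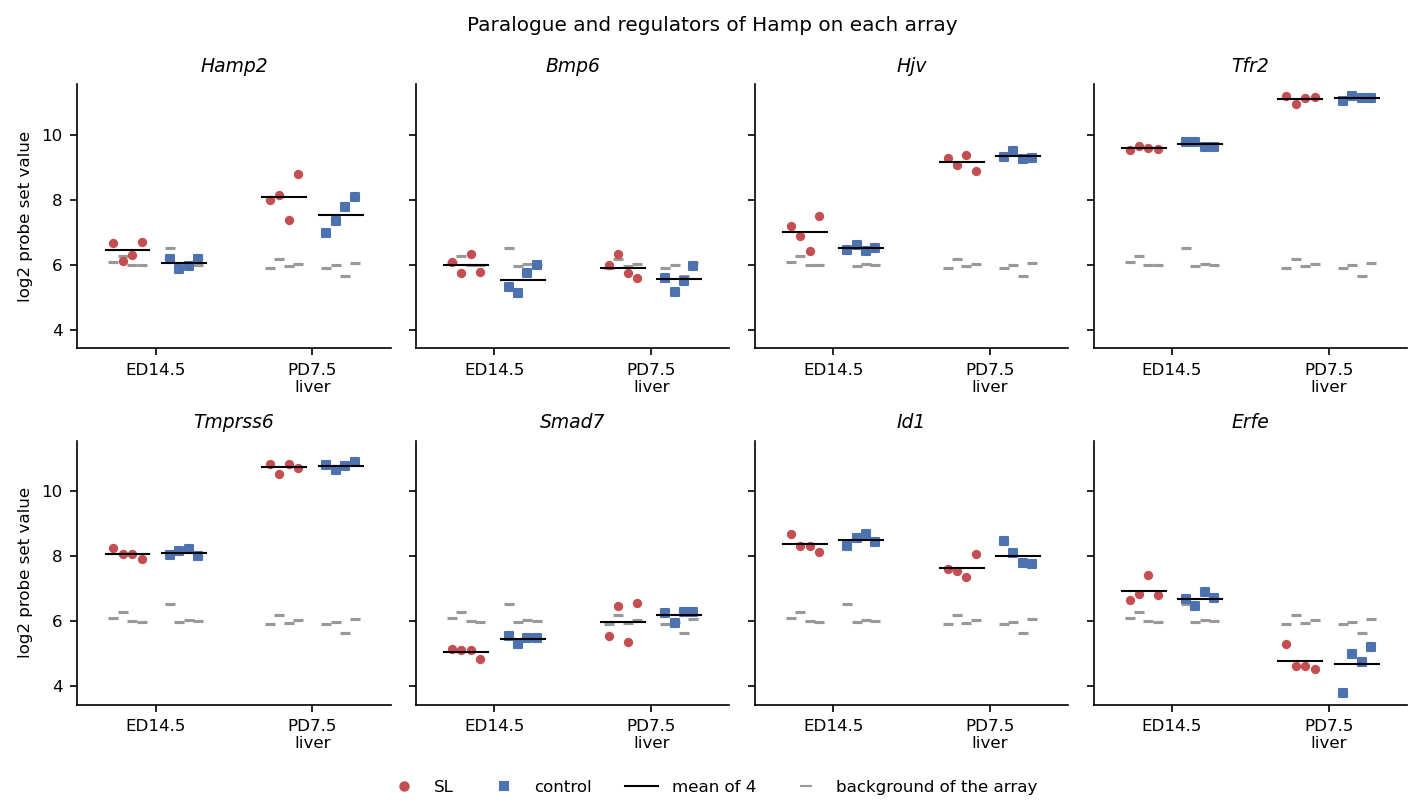
Log2 values of Hamp2 and of 7 regulators or targets of the hepcidin pathway on the ED14.5 and PD7.5 liver arrays (SL circles, control squares, means of 4 as black lines, array background as grey dashes). Hjv rose between the ages, by 2.84 in controls, while the SL and control arrays of each age overlap in every panel except Smad7 at ED14.5, where all arrays lie below background.

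Between the ages the iron list split. From ED14.5 to the PD7.5 liver, 19 of its 41 genes rose and 17 fell in controls, where 20.5% of all genes rose and 24.6% fell. Hjv rose by 2.84 (SE 0.106, adjusted p = 4.27e-08), Tmprss6 by 2.68 (SE 0.110, adjusted p = 7.34e-08) and the iron importer Slc39a14 by 2.02 (SE 0.118, adjusted p = 6.57e-07). Slc25a37, the mitochondrial iron importer of erythroid cells, fell by 2.75 (SE 0.187, adjusted p = 1.68e-06), and so did all 9 erythroid markers, by a median of 3.06. From ED7.5 to ED14.5 Slc25a37 had risen by 5.81 and Tfr2 by at least 16.6-fold, and the ferroportin gene Slc40a1 by 4.59, while Bmp2 fell by 5.38 (adjusted p at most 1.26e-08 for these). Hamp itself rose between the ED14.5 control samples and the control livers, by at least 1.84-fold (difference 1.48, SE 0.272, adjusted p = 0.00131).

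At ED14.5, 8 of the 10 genes had differences above 0, where 50% of all genes did, with a median of 0.21. At ED7.5 it was 2 of 10, where 50.5% of all genes did, with a median of −0.09, and in the liver 7 of 10, where 50.7% did, with a median of 0.04. Some of these signs come from signals below background. At ED14.5, 2 of the 10 genes in SL and 4 in controls lay above background on no array, and at ED7.5 this held for 4 and 5. By unadjusted p below 0.05 at ED14.5, 2 of 10 differed, where 11.4% of all genes did. By limma 0 of 10 passed, where 0.0513% of all genes did. Hp read 8.26, 8.39, 7.87 and 8.03 in SL samples, against 7.72, 7.81, 7.64 and 7.96 in controls. The ranges overlapped through SL replicate 3, which lay below the highest control, and the difference was 0.36 (SE 0.134, unadjusted p = 0.0250, adjusted p = 0.363). Cp read 9.44, 9.11, 9.15 and 8.50 in SL samples, against 8.94, 8.50, 8.78 and 7.97 in controls, a difference of 0.50 (SE 0.247, adjusted p = 0.478). Saa3, above background on 2 of 4 SL and 0 of 4 control arrays, differed by 0.40 (SE 0.181, adjusted p = 0.444) and Hpx by 0.28 (SE 0.160, adjusted p = 0.544). Trf, with 0.02 (SE 0.0836, 95% interval from −0.17 to 0.21), and Itih4, with 0.02 (SE 0.147), were the closest to 0.

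In the PD7.5 liver 0 of 10 genes passed and 0 of 10 had an unadjusted p below 0.05, where 7.91% of all genes did, and 0 genes in all passed. Among the abundant members Apcs differed by −0.15 (95% interval from −0.42 to 0.13). Hp differed by −0.02 (95% interval from −0.28 to 0.24), Hpx by −0.01 (from −0.25 to 0.23), Trf by 0.03 (from −0.21 to 0.27), Itih4 by 0.03 (from −0.23 to 0.29) and Cp by 0.04 (from −0.24 to 0.32). Apart from that of Apcs, these intervals describe values near the upper end of the array scale, where true differences can be understated. Saa3 averaged 6.90 ± 0.219 in SL livers and 6.55 ± 0.403 in control livers (SD, n = 4 each), with overlapping arrays and a difference of 0.36 (SE 0.210, adjusted p = 0.710). Of 12 macrophage markers 2 had differences above 0 between these livers, where 50.7% of all genes did, with a median of −0.21. Their part in the difference of Saa3 between the arms was not tested. At ED7.5 0 of 10 passed, where 0.00513% of all genes did, and 0 of 10 had an unadjusted p below 0.05, where 5.49% of all genes did, and the differences ran from −0.32 for Itih4 to 0.17 for Trf.

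**Figure D4:**
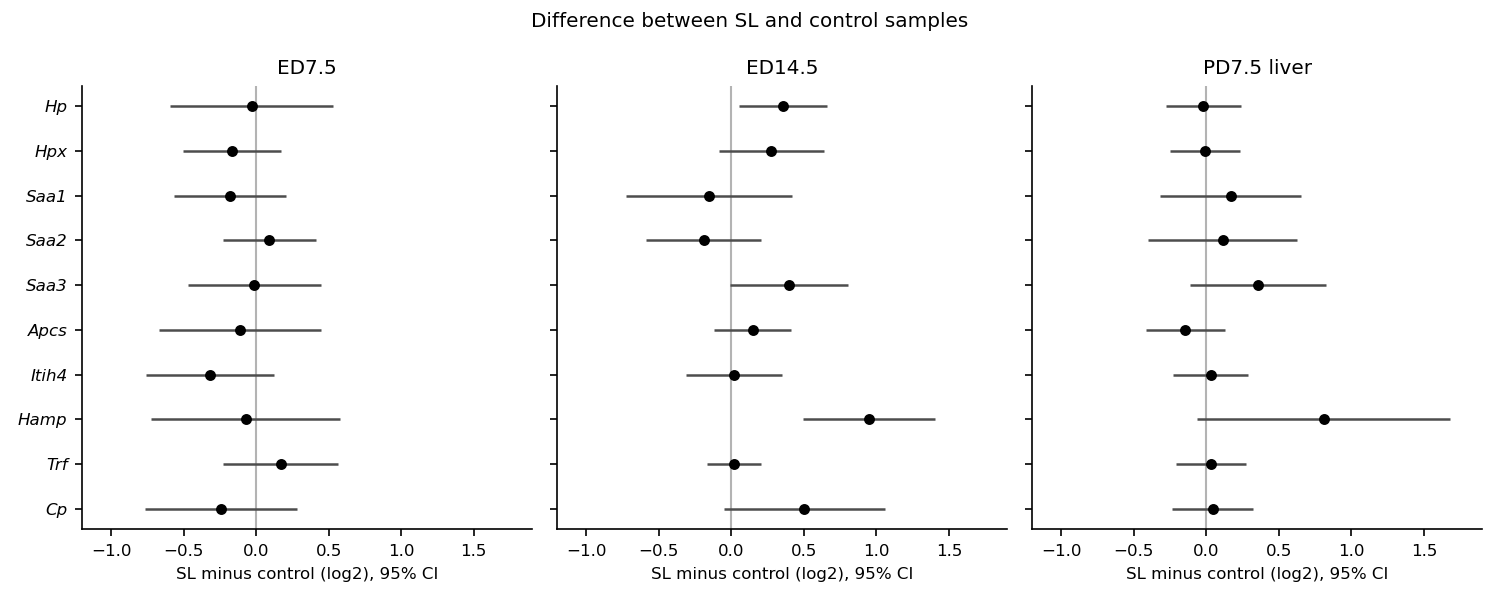
SL minus control differences in log2 with 95% intervals for the 10 genes in the ED7.5, ED14.5 and PD7.5 liver samples, 4 arrays per group. Hamp lies at 0.95 in the ED14.5 panel, where its control arrays were below background, and at 0.81 in the liver panel, and no gene passed the adjusted threshold at any age.

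Whether the SL difference changed between ED14.5 and the liver was tested as an interaction, and 0 of the 10 genes passed by limma, where 0.0256% of all genes did, and 0 had an unadjusted p below 0.05, where 10.6% of all genes did. The interaction was −0.46 for Cp (SE 0.317, adjusted p = 0.644), −0.38 for Hp (SE 0.264, adjusted p = 0.646) and −0.29 for Hpx (SE 0.199, adjusted p = 0.646).

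Other genes of the acute phase or of plasma proteins, here called partners, were taken from a list of 37 genes, of which 34 were measured. In controls 31 of 34 rose and 1 fell from ED14.5 to the PD7.5 liver, where 20.5% of all genes rose and 24.6% fell. The median difference of the 34 was 1.19. Among those that rose were the lectin Mbl2 (5.21, SE 0.140), the complement component C4b (4.91, SE 0.106) and, named after its values were seen, Serpina3n (4.58, SE 0.122). Lrg1, a leucine-rich glycoprotein, rose by at least 7.23-fold (adjusted p = 5.03e-06) and the protease inhibitor Mug1 by at least 6.29-fold, both from ED14.5 control arrays below background. Some of these genes had been detected at ED7.5. In the ED7.5 controls Mbl2 averaged 5.33, C4b 6.18, Serpina3n 10.54, Lrg1 7.88 and Mug1 6.17. Lrg1 lay above background there on 4 of 4 arrays and Mug1 on 3 of 4. From ED7.5 to ED14.5, 23 rose and 9 fell, where 25.6% of all genes rose and 26.3% fell. Alb rose by at least 233-fold and Ambp, the precursor of alpha-1-microglobulin, by at least 96.8-fold, and fibrinogen gamma Fgg and fetuin Ahsg also rose, with measured differences of 8.49 and 8.18 against ED7.5 controls in which 1 of 4 arrays was above background.

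Between SL and control 0 of the 34 passed by limma at any age, with unadjusted p below 0.05 for 2 genes at ED7.5, 4 at ED14.5 and 3 in the liver. Over all genes the shares with such a p were 5.49%, 11.4% and 7.91%. At ED14.5 the smallest p values were those of the serpin Serpina3n (0.46, SE 0.151, adjusted p = 0.289) and Mbl2 (0.40, SE 0.142, adjusted p = 0.340). In the liver they were those of A2m, alpha-2-macroglobulin, and of C9, the last component of the complement attack complex. A2m read 10.14, 9.80, 9.86 and 10.12 in SL livers, against 9.47, 9.16, 9.03 and 9.70 in controls, with the SL arrays wholly higher, as for 2.13% of all genes, and its difference of 0.64 did not pass (SE 0.174, adjusted p = 0.516). C9 differed by 0.45 (SE 0.170, adjusted p = 0.609). Orm1, an orosomucoid that rises with Saa1 and Saa2 in inflammation and is named here after its values were seen, lay above background on 2 of 4 SL and 0 of 4 control livers, with a difference of 0.88 (SE 0.365, adjusted p = 0.625). Of 14 granulocyte markers in the liver 13 had differences above 0, where 50.7% of all genes did, with a median of 0.35. The log2 of the markers' summed level ran from 13.27 to 13.45 in SL and from 12.70 to 13.39 in controls. Their part in these differences was not tested. At ED7.5 the metalloreductase Steap4 differed by 0.84 (SE 0.239, adjusted p = 0.760), or 0.64 without control replicate 2, and Orm1 by −0.68 (SE 0.228, adjusted p = 0.812).

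The regulators of the acute phase response, 25 measured of 27 listed, gave 0 calls by limma between SL and control at any age, with unadjusted p below 0.05 for 3 genes at ED7.5, 6 at ED14.5 and 2 in the liver. Over all genes the shares with such a p were 5.49%, 11.4% and 7.91%. At ED14.5 the smallest p values were those of Il1rn, the interleukin 1 receptor antagonist, and of Cish, a suppressor of cytokine signalling. Il1rn read 6.82, 7.11, 7.29 and 7.06 in SL samples, against 8.06, 8.12, 7.86 and 7.85 in controls. Every SL array lay below every control array, and the difference of −0.90 did not pass the threshold (SE 0.124, adjusted p = 0.0596), nor did that of −0.87 without control replicate 1 (adjusted p = 0.134). The number of genes called at this age depended on the variance model, and the call of Il1rn under the other models is not given. Cish differed by −0.53 (SE 0.103, adjusted p = 0.102). At this age 4.27% of all genes lay wholly lower in SL.

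In the liver Il1b, above background on 1 of 8 arrays, differed by 0.71 (SE 0.284, adjusted p = 0.623), and Il6, above it on none, by −0.38 (SE 0.163, adjusted p = 0.628). At ED7.5 Il6, above background on 0 of 4 SL and 2 of 4 control arrays, differed by −0.32 (SE 0.110, adjusted p = 0.814). Tnfrsf1a, a receptor of tumour necrosis factor, differed there by 0.29 (SE 0.121, adjusted p = 0.879). From ED14.5 to the control liver Il6ra, the interleukin 6 receptor, rose by 2.48 (SE 0.196, adjusted p = 4.51e-06), its signalling partner Il6st by 1.25 (SE 0.112), the related receptor Lifr by 1.53 (SE 0.122) and the transcription factor Cebpa by 1.72 (SE 0.125). In all 13 of the 25 rose and 2 fell at this step, where 20.5% of all genes rose and 24.6% fell. Il1r1, the interleukin 1 receptor, named after its values were seen, did not pass (0.07, SE 0.131, adjusted p = 0.720). From ED7.5 to ED14.5, 3 rose and 14 fell, where 25.6% of all genes rose and 26.3% fell. Hnf4a, a transcription factor of hepatocytes, rose, with a measured difference of 5.77 against ED7.5 controls in which 1 of 4 arrays was above background. Osmr, the oncostatin M receptor, fell by at least 14.2-fold and Il6st by 3.04. Il6 fell too, above background on 0 of 4 ED14.5 and 2 of 4 ED7.5 control arrays, so no fold is given.

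Of 11 genes of copper handling, measured beside ceruloplasmin, 0 passed by limma between SL and control at any age, and 1 had an unadjusted p below 0.05, at ED14.5, where 11.4% of all genes did. The copper transporter genes Slc31a2 and Slc31a1 differed by −0.34 (SE 0.125, adjusted p = 0.356) and −0.20 (SE 0.0944, adjusted p = 0.451) at ED14.5. Ccs, the copper chaperone of superoxide dismutase, and Atp7a, a copper-exporting ATPase, differed by −0.16 (adjusted p = 0.759) and 0.12 (adjusted p = 0.897) in the liver, and Sod1 and Slc31a2 by 0.16 (adjusted p = 0.956) and −0.24 (adjusted p = 0.961) at ED7.5. From ED14.5 to the control liver Ccs rose by 1.42 and Slc31a1 by 0.76, and Cox17, which carries copper to cytochrome oxidase, fell by 1.30 and Atp7a by 0.55 (adjusted p at most 0.0191 for these), the last losing its call without ED14.5 control replicate 1. From ED7.5 to ED14.5 Atp7b, which loads copper onto ceruloplasmin, rose by 1.59, Sod1 by 1.25 and Cox17 by 1.05, and Slc31a2 fell by 2.48 (adjusted p at most 1.62e-05 for these).

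Tests of whether the SL difference changed between ages gave 0 calls in these lists on all arrays. Leaving out 1 array at a time gave 0 to 1 call among the acute phase partners for ED14.5 less ED7.5. The other lists, and all lists for the liver less ED14.5, stayed at 0 calls. The smallest adjusted p was that of Steap4, whose difference at ED14.5 less that at ED7.5 was −1.36 (SE 0.291, adjusted p = 0.0783), and −1.16 without ED7.5 control replicate 2 (adjusted p = 0.124). Between the liver and ED14.5 the iron list was led by Ireb2, an iron-sensing RNA-binding protein (0.39, SE 0.133, adjusted p = 0.302), and Hjv (−0.68, SE 0.265, adjusted p = 0.360), and the partners by A2m (0.74, SE 0.233, adjusted p = 0.254) and C9 (0.81, SE 0.275, adjusted p = 0.295). The regulators Il6st and Stat3 followed with 0.43 (adjusted p = 0.293) and 0.35 (adjusted p = 0.467), and the copper transporters Slc31a1 and Slc31a2 with 0.23 (adjusted p = 0.544) and 0.31 (adjusted p = 0.632). Between ED14.5 and ED7.5 the interaction was −0.48 for C4b (adjusted p = 0.674), −0.55 for Tnfrsf1a (adjusted p = 0.340) and −1.44 for the cytokine gene Tnf (adjusted p = 0.595). It was −0.55 for the iron transporter Slc11a2 (adjusted p = 0.553), 0.43 for Tfr2 (adjusted p = 0.651), −0.22 for Slc31a1 (adjusted p = 0.813) and −0.15 for Sod1 (adjusted p = 0.896). None of these passed. Tnf lay above background on 2 of 4 ED7.5 SL arrays and on 0 of 4 in the ED7.5 control and both ED14.5 groups. Tfr2 lay above background on no ED7.5 array. Their interactions are thus read largely from signals below background.

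Variation between arrays of the same group was compared over the 16 ED14.5 and liver arrays, as values less the mean of their own group of 4. Over the 45 pairs of members, Pearson's r was highest for Hpx with Itih4, at 0.59, and lowest for Saa2 with Cp, at −0.58, and 4 pairs exceeded 0.5. The genes most like each member in this respect, among 8523 above background on all 16 arrays, are given as a description, with no test. For Hpx they were C8b (r = 0.87), Fbp1 (r = 0.85) and Bhmt (r = 0.83), for Trf Serpina7, Cryzl1 and Trappc8 (r = 0.85, 0.79 and 0.75), and for Itih4 Pdss2, Prodh2 and D5Ertd579e (r = 0.87, 0.84 and 0.83). For Hamp they were Ell2 (r = 0.88), Lrrfip2 (r = 0.86) and Sec63 (r = 0.85), for Cp Cfhr2, Ccdc117 and Arfgap1 (r = 0.84, 0.83 and 0.82), for Apcs Naip2, Cyp2d40 and Fam20c (r = 0.87, 0.84 and 0.82), and for Hp H2-T10, Slc25a28 and Chmp7 (r = 0.81, 0.79 and 0.79). Hamp and the Saa genes lay below background on some of the 16 arrays. For Saa1 the first gene was Dtnb (r = 0.80), for Saa2 Cdk5rap3 (r = 0.91) and for Saa3 Ssbp4 (r = 0.87). The arrays were normalized together and so share that step.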

How the data were processed

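Total RNA of 24 samples was hybridised to single-colour Affymetrix arrays, per the labels' protocols. The deposited values are log2 probe set summaries that the authors made with RMA in oligo, per the submitters' processing notes, which give no version. RMA includes quantile normalization, which makes the value distributions of arrays alike. The deposited matrix held 29129 features, 6923 of them controls. Of the other 22206, 19572 named 1 gene in the platform annotation, 0 named several and 2634 named none. The brightest probe set stood for each of 55 genes with several, leaving 19505 genes, all tested without a filter.

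Groups were compared with limma 3.58.1 (R 4.3.3), within an age on 8 arrays and for interactions on all 24, with Benjamini-Hochberg adjustment over all genes. Figures and summaries were made in Python 3.11.15. The fit was tested on simulated data. A fold against a group wholly at or below background was computed per array against the higher of the background and the value itself, and gives a lower bound only. Precision is limited by how many arrays each group has. Same-numbered arrays deviated together little (r from −0.165 to 0.116 in the comparisons of 2 groups), so the numbers were not taken as pairs. Between the 2 liver groups, though, replicates 2, 3 and 4 matched their own number best (r = 0.097, 0.116 and 0.066).

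The members and lists were chosen with earlier results of these data known. All members are named. Per list and comparison the text names up to 4 called genes with the largest change, or else the 2 with the smallest p. Genes outside this rule are marked. Promoter sequences are from RefSeq (GRCm38.p6).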

Additional observations from a re-analysis of the deposited data

Results flagged for a closer look

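Of the 60 sets of 4 arrays (10 genes in 6 groups), 2 held an array far from the other 3 by Dixon's criterion, and chance alone gives about 1 in 20. Itih4 read 12.86 on its highest SL liver array, against 12.68 to 12.71 on the others. Trf read 13.85 on its highest SL liver array, against 13.83 on the others, at the upper end of the array scale.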

How the results depend on the processing

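Between SL and control the 0 calls among the 10 genes held under every alternative run except the intensity-trended robust prior at ED14.5, which called 1, Hamp, and 283 genes in all. The number of genes called in all was less stable. At ED7.5 it was 1, against 3 with that prior and 12 with all 24 arrays in one fit. At ED14.5 it was 10, against 94 without the dimmest genes, 79 with all 24 arrays and 2 with Eif2s3y presence as a covariate, chosen after seeing the data. In the liver it was 0, against 5 with all 24 arrays. For the interaction of liver and ED14.5 it was 5, against 28 with that prior, 18 without the dimmest genes and 10 after quantile normalization. For that of ED14.5 and ED7.5 it was 15, against 35 with that prior, 46 with array weights and 28 without the dimmest genes. When replicate numbers entered as a block, the count was 0 at ED14.5 and 9 for the interaction of liver and ED14.5, and the Hamp difference at ED14.5 had adjusted p = 0.318. With that block the Hamp difference of 0.81 in the liver had SE 0.184, against 0.389 without it, and did not pass by limma (adjusted p = 0.544). Without the dimmest genes some members were not tested, so their count has no value there. Leaving out one array at a time gave 0 to 2 genes at ED7.5, 1 to 5 at ED14.5, 1 to 16 for the interaction of liver and ED14.5 and 8 to 19 for that of ED14.5 and ED7.5. It turned the sign of differences near 0. At ED7.5 these were Hp from −0.19 to 0.16, Saa2 from −0.0058 to 0.19, Saa3 from −0.18 to 0.12, Apcs from −0.28 to 0.058, Hamp from −0.30 to 0.10. At ED14.5 they were Itih4 from −0.056 to 0.15, Trf from −0.0086 to 0.039, and in the liver Hp from −0.054 to 0.013, Hpx from −0.024 to 0.014, Saa2 from −0.038 to 0.29, Itih4 from −0.013 to 0.055, Cp from −0.0068 to 0.10. For the interaction of liver and ED14.5 they were Hamp from −0.36 to 0.14, Saa3 from −0.21 to 0.10, Itih4 from −0.12 to 0.085, Trf from −0.0065 to 0.041, where Saa3 also turned to 0.058 with array weights and 0.018 after quantile normalization, and for that of ED14.5 and ED7.5 Saa1 from −0.20 to 0.18. The cause of these changes was not tested. Signals near background limit Saa1, Saa2 and Hamp, and 4 arrays per group limit all differences.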
